A study of Mus musculus with 12 samples.

Results

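RNA-seq of eye tissue compared mice on alternate-day intermittent fasting and injected with NaIO3 (IF + NaIO3) with mice fed ad libitum and given the same injection (AL + NaIO3). There were 3 libraries in each group, 6 of the 12 in the study, and the labels put each in its group. All mice were wild-type male C57BL/6J, 8 weeks old when the diets began. IF mice went 24 h without food and then had food for 24 h, in alternation for 12 weeks, and the regimen was kept after the injection. NaIO3 was given once by intraperitoneal injection at 25 mg/kg, and tissue was taken 7 days later. The other 6 libraries were AL + PBS and IF + PBS, 3 each, from mice injected with PBS. The methods take RNA for sequencing from eye cups and, in the section on PCR, describe both eye cups of 1 mouse lysed together.

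NaIO3 is an oxidant that injures the retinal pigment epithelium (RPE), the cell layer that feeds photoreceptors, digests their shed outer segments and recycles their chromophore. When this layer fails, photoreceptors degenerate, Müller glia that span the retina become reactive, and resident microglia and incoming macrophages clear debris. Fasting is widely studied for its effects on metabolism and on inflammation in nervous tissue. The question behind the comparison is how far the diet alters the response of the eye to this injury.

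The labels name the tissue as RPE, choroid and sclera, the methods as eye cups and the legends as retinas, and photoreceptor transcripts dominated it. Per gene length and library (FPKM as deposited), the rod transducin Gnat1 lay between 1281 and 3391 in the 6 libraries, the RPE isomerase Rpe65 between 19.1 and 57.2, and the RPE channel Best1 between 0.0971 and 0.639. Totals lay between 26364665 and 38849576 counts in these libraries. At that depth a count of 0 allows up to 3 counts, or at most 0.107 CPM (the count scaled to library size, with TMM factors over the 12 libraries), a limit that covers counting error only. AL + NaIO3 replicate 3 stood apart, so edgeR calls of this comparison and the list medians below are given with and without it. Its 16 markers of choroid and sclera stroma summed to 2162 CPM, against 592 and 510 in AL + NaIO3 replicates 1 and 2 and 437 to 450 in IF + NaIO3. AL + NaIO3 replicate 2 held more of the 13 cornea and surface epithelium markers, at 631 CPM against 29.1 to 160 in the other 5. In bulk tissue, fewer cells of a type and less RNA per cell cannot be told apart.

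Fasted mice carried lower levels of many inflammatory and reactive glial genes after NaIO3, and most called genes were lower. Of 15648 genes tested, edgeR's quasi-likelihood test called 6 (0.0383%), all lower in IF + NaIO3. A gene counts as called here when its adjusted p is below 0.05 and it differs by 1.5-fold or more. In the coordinates of the deposited table, which overlap RefSeq genes of GRCm38.p6, the 6 genes are Edn2 (chr4:120161210-120167360), Lcn2 (chr2:32384633-32388252), Cebpd (chr16:15887286-15891031), Hipk1 (chr3:103739820-103791560), H2-Q4 (chr17:35379617-35385290) and Ifit3 (chr19:34583531-34588731). By edgeR, 0 genes were called higher, where 542 genes had an unadjusted p under 0.05. DESeq2 called 499 of 17002 genes (2.93%), of which 449 were lower (2.64%) and 50 were higher (0.294%). By DESeq2 the calls included 15 of 17 reactive glia genes, 32 of 42 interferon-stimulated genes and 11 of 22 complement genes, all lower, and 7 sterol genes higher and 1 lower. Without AL + NaIO3 replicate 3, edgeR called 75 of 15740 genes (0.476%), of which 70 were lower (0.445%) and 5 were higher (0.0318%). The 75 included each of the 6. With the dispersion estimated from all 12 libraries, 190 of 15970 genes (1.19%) were called, 170 lower (1.06%) and 20 higher (0.125%), and 68 of the 75 were among them. Leaving out another library instead removed calls: 2 genes remained without AL + NaIO3 replicate 1, 1 without replicate 2, 0 without IF + NaIO3 replicate 1, 0 without replicate 2 and 1 without replicate 3. In the fits without IF + NaIO3 replicate 1 and replicate 2, 1133 and 938 genes had an unadjusted p under 0.05. By sign alone, 51.9% of genes were lower and 48.1% higher in the 6 libraries, and 50.2% and 49.8% without AL + NaIO3 replicate 3. The 3 libraries of each group did not overlap in 10.2% of genes that were lower and 8.68% that were higher. At an unadjusted p under 0.05, 5.93% were lower and 3.35% higher without that library. The difference between all genes was centred near 0, with a median log2 fold change of -0.01 in the 6 libraries and 0.00 without AL + NaIO3 replicate 3.

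**Figure D1:**
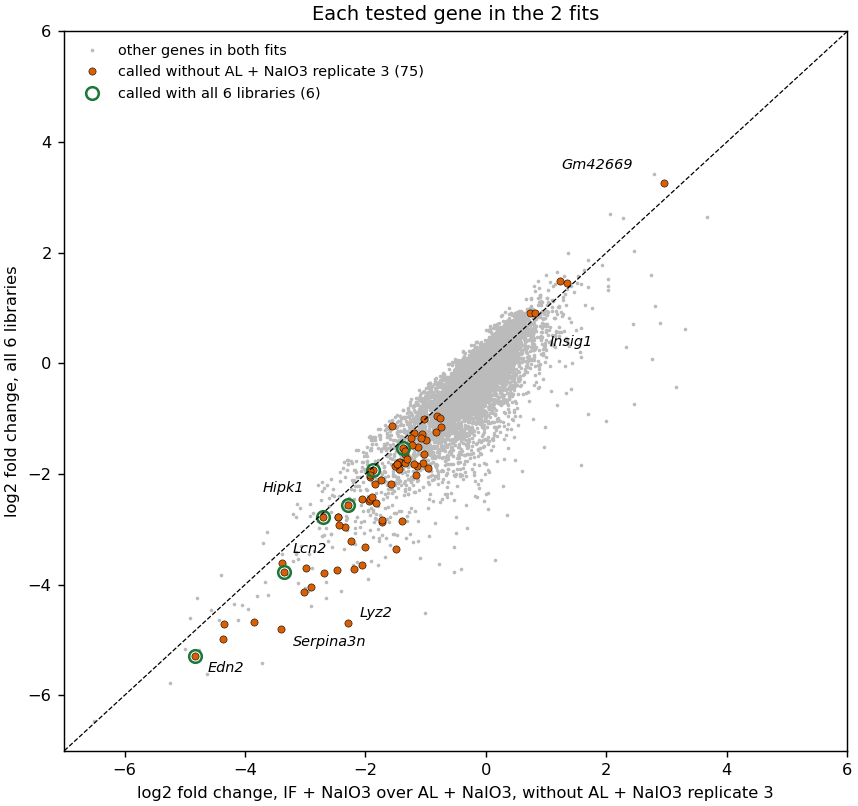
Log2 fold change of IF + NaIO3 over AL + NaIO3 for 15614 genes tested in both fits, with the 5 libraries left without AL + NaIO3 replicate 3 on the horizontal axis and all 6 libraries on the vertical axis. Orange points are the 75 genes called without that library, green rings the 6 called with it, the dashed line marks equal values, and 10 genes lie outside the axes. The 70 genes called lower lie at negative values on both axes.

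The 70 lower genes were mostly highest in AL + NaIO3 replicate 3, the library their fit did not use. In 66 of the 70, that library exceeded both other AL + NaIO3 libraries, where it did so in 39.9% of all 15740 genes, with a median ratio of 1.99 to their mean against 1.00 over all genes. In 69 it exceeded each IF + NaIO3 library, against 39.0% of all genes. The same IF + NaIO3 libraries entered the fit that chose the 70, so this share was partly set by the choice. The median fold of the 70 was 3.31 without AL + NaIO3 replicate 3. The IF + NaIO3 mean lay within 2-fold of the AL + PBS mean in 64 of the 70 and in 97.1% of all genes.

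Genes of reactive glia were lower in fasted mice. The list of 17 reactive Müller glia and astrocyte genes was lower in all 17, each with an unadjusted p under 0.05, where 8.22% of all genes tested were lower at that level. Its median log2 fold change was -1.86, and -1.51 without AL + NaIO3 replicate 3, when 10 were called lower, against 0.445% of all genes. This list and the other gene lists were chosen with earlier results of these data known. Their counts beside the shares of all genes therefore describe the lists and are not independent support. Edn2, an endothelin that injured photoreceptors release to signal to Müller glia, stood at 41.5, 80.2 and 129 CPM in the AL + NaIO3 libraries and at 2.24, 2.12 and 2.10 CPM in IF + NaIO3. The groups were far apart, and the IF + NaIO3 values were no higher than the 3.02 to 5.03 CPM of AL + PBS. Edn2 fell by 5.29 ± 0.43 (SE) on the log2 scale (edgeR adjusted p = 0.0143), and by 4.83 ± 0.27 without AL + NaIO3 replicate 3 (edgeR adjusted p = 0.000199). Gfap, the intermediate filament of reactive glia, was at 112, 97.1 and 308 CPM in AL + NaIO3 and at 10.7, 13.4 and 15.7 CPM in IF + NaIO3. Each AL + NaIO3 value was more than the IF + NaIO3 values by a wide margin. The difference of Gfap was -3.71 ± 0.46 with all 6 libraries (edgeR adjusted p = 0.0595) and -2.99 ± 0.17 without AL + NaIO3 replicate 3 (edgeR adjusted p = 0.000199).

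AL + NaIO3 replicate 3 was also the highest library in Serpina3n, Steap4, Cd44 and Vim of the glial list. Serpina3n, a secreted protease inhibitor of reactive astrocytes, was at 71.2, 74.3 and 429 CPM in AL + NaIO3 and at 5.27, 8.76 and 6.61 CPM in IF + NaIO3. Steap4, a metalloreductase, was at 13.1, 13.4 and 44.2 CPM against 0.863, 1.07 and 0.827 CPM. In both genes AL + NaIO3 replicates 1 and 2 nearly coincided and replicate 3 stood well above them. Their differences without that library were -3.41 ± 0.20 and -3.85 ± 0.26 (edgeR adjusted p = 0.000199 and 0.00037). Cd44, a hyaluronan receptor, was at 46.9, 47.1 and 109 CPM against 11.9, 13.4 and 12.8 CPM, and fell by 1.90 ± 0.13 without it (edgeR adjusted p = 0.000399). Vim, the vimentin filament, was abundant in every library and differed less, at 221, 218 and 329 CPM against 133, 134 and 122 CPM. The 13 homeostatic Müller glia genes did not share the pattern: their median was -0.29, and 0.03 without AL + NaIO3 replicate 3. Of these 13, 2 were called lower without it, Crym, a thyroid hormone binding protein, and Apoe, the apolipoprotein that glia and macrophages secrete. Apoe was at 1941, 2197.5 and 3954 CPM in AL + NaIO3 and at 1141, 1028 and 949.4 CPM in IF + NaIO3.

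**Figure D2:**
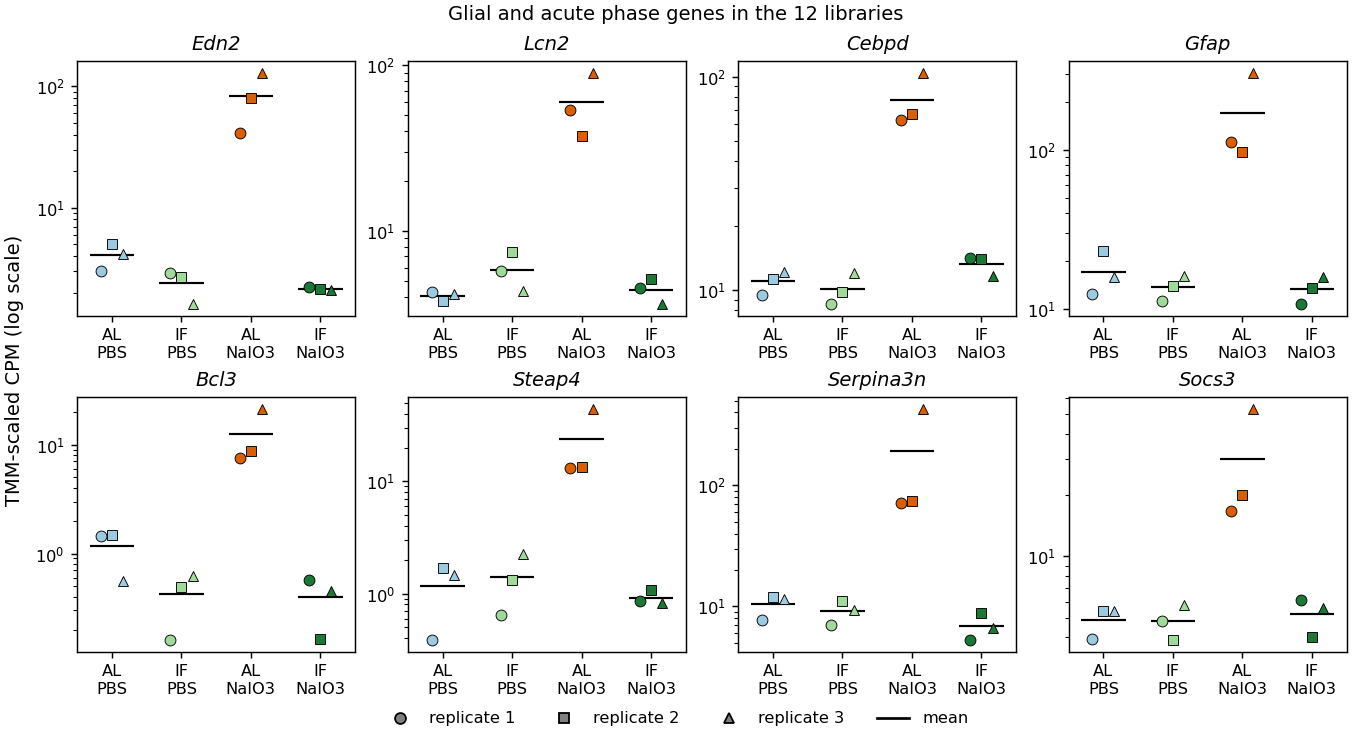
TMM-scaled CPM on a log scale for 8 glial and acute phase genes in the 12 libraries, with the 3 replicates of each group as separate symbols and a bar at the group mean. In each panel the AL + NaIO3 libraries lie above the other 9, and for Edn2 they hold 41.5 to 129 CPM against 2.10 to 2.24 in IF + NaIO3.

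Signals that act on these glia were examined next. Of 22 tested genes of neurotrophic and glial survival signalling, 11 were lower and 0 higher at an unadjusted p under 0.05. Over all genes 8.22% were lower and 3.46% higher at that level. Without AL + NaIO3 replicate 3, 3 were called lower, namely Edn2, Osmr and Socs3, against 0.445% of all genes. Edn2 and Osmr are also among the reactive glia calls. Osmr encodes the oncostatin M receptor, and Socs3 the feedback inhibitor that STAT3 induces downstream of it. Socs3 was at 16.7, 20.04 and 53.2 CPM in AL + NaIO3 and at 6.07, 3.99 and 5.58 CPM in IF + NaIO3, near the 3.91 to 5.37 CPM of AL + PBS. It fell by 1.83 ± 0.23 without AL + NaIO3 replicate 3 (edgeR adjusted p = 0.0133). Stat3 itself, at 89.2, 124 and 206 CPM against 58.9, 53.9 and 62.4 CPM, had an edgeR adjusted p of 0.0546 in that fit and 0.0182 with the 12 libraries. Lif, a cytokine of the same receptor family, was low, at 2.02, 3.09 and 8.22 CPM against 0.374, 0.826 and 0.896 CPM, and was not called (edgeR adjusted p = 0.22). The kinases Jak1 and Jak2 had log2 differences of -0.09 and 0.05, and of -0.07 and 0.09 without that library. The median of the 22 genes was -1.15, and -0.19 without AL + NaIO3 replicate 3, when 8 were lower and 1 higher at an unadjusted p under 0.05. Over all genes 5.93% were lower and 3.35% higher at that level in that fit.

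The growth factor gene Fgf2, counted in both the reactive glia list and the signalling list, cannot be read in the same way. Its values were 66.4, 79.9 and 171 CPM in AL + NaIO3, and 18.5, 1.68 and 2.27 CPM in IF + NaIO3. Within AL + PBS it was at 1.51, 25.7 and 24.9 CPM, so libraries of 1 group differed as widely as the groups. The gene overlaps Nudt6 in the annotation, and how reads were divided between the 2 genes is not given in the sources used here. Hipk1, a kinase gene and 1 of the 6 called genes, had the same feature. It was at 113, 107 and 126 CPM in AL + NaIO3 and at 11.02, 16.9 and 22.9 CPM in IF + NaIO3, but also at 17.6 CPM in IF + PBS replicate 1 against 97.9 and 101 CPM in its group. Hipk1 overlaps Gm10964. Likewise Gm48552 and Gm48551, which overlap each other on chromosome 10, differed in opposite directions without AL + NaIO3 replicate 3, by -1.56 ± 0.17 and 1.34 ± 0.18 (edgeR adjusted p = 0.00575 and 0.0146).

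The acute phase and NF-kB list, which covers secreted defence proteins and the transcription factors that drive them, had 19 of 26 tested genes lower and 0 higher at an unadjusted p under 0.05. Over all genes 8.22% were lower and 3.46% higher at that level. Without AL + NaIO3 replicate 3, 10 genes of the list were called lower, against 0.445% of all genes. Of these, Cp, Lcn2, Serpina3n and Steap4 are also among the reactive glia calls. The median of the list was -0.75 without that library, against -1.44 with it. Lcn2, the iron-scavenging lipocalin 2, was at 53.2, 37.1 and 89.8 CPM in AL + NaIO3 and at 4.55, 5.10 and 3.62 CPM in IF + NaIO3. It fell by 3.77 ± 0.34 (edgeR adjusted p = 0.0143). Cebpd, the C/EBP delta transcription factor of the acute phase, was at 62.5, 66.8 and 104 CPM against 14.1, 14.0 and 11.6 CPM, and fell by 2.56 ± 0.22 (edgeR adjusted p = 0.0143). The IF + NaIO3 libraries lay within a few CPM of each other in both genes. Cebpd shares its locus with Spidr. Bcl3, a nuclear partner of NF-kB, was at 7.51, 8.81 and 21.3 CPM against 0.575, 0.165 and 0.448 CPM, a difference of -4.37 ± 0.46 without AL + NaIO3 replicate 3 (edgeR adjusted p = 0.00575). Timp1, an inhibitor of matrix proteases whose locus overlaps Syn1, was at 13.1, 8.85 and 20.5 CPM against 0.144, 0.633 and 0.861 CPM (edgeR adjusted p = 0.0115 in that fit). A2m, an abundant plasma protease inhibitor, was highest by far in AL + NaIO3 replicate 3, at 30.7, 41.6 and 318 CPM against 13.6, 9.83 and 15.2 CPM.

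Promoter sequence is shown for Lcn2 and Steap4 of this list and for Socs3 of the signalling list, because their start regions hold the letters read by the factors named above. The windows are the 250 bases before the RefSeq start (GRCm38.p6), 5′ to 3′. Capitals mark matches to the C/EBP letters TTGCNNAA or to the STAT letters TTCNNNGAA on either strand.
Lcn2, chr2:32387740-32387989, minus strand: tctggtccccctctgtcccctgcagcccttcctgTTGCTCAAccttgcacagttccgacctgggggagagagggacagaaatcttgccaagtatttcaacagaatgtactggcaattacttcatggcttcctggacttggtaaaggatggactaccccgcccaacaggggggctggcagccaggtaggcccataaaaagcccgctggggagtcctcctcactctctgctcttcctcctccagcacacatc
Steap4, chr5:7960222-7960471, plus strand: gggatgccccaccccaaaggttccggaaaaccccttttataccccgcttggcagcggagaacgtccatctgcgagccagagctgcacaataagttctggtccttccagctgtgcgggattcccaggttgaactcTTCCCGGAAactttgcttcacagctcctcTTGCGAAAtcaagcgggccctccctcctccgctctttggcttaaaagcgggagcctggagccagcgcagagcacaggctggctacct
Socs3, chr11:117969367-117969616, minus strand: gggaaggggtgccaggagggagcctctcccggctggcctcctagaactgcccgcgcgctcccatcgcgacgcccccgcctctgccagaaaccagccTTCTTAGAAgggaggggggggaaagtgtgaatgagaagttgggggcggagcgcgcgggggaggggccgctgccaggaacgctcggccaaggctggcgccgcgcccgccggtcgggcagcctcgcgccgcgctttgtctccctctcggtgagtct
In Lcn2 the C/EBP match begins 216 bases before the start, in Steap4 the STAT and C/EBP matches begin 116 and 87 bases before it, and in Socs3 the STAT match begins 154 bases before it. The C/EBP letters occur in 9.04% and the STAT letters in 6.67% of the 16800 promoter windows matched to genes of the files. Among the 22 acute phase genes with a window, 4 held the C/EBP letters and 3 the STAT letters. Among the 21 signalling genes with a window, Socs3 was the 1 with the STAT letters (4.76%). A match describes the sequence and is not a measured binding site.

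Interferon-stimulated genes, which cells switch on in response to interferon, were lower in IF + NaIO3 in all 42 genes tested. Of these, 36 had an unadjusted p under 0.05, where 8.22% of all genes were lower at that level. The 3 libraries of each group did not overlap in 38, where 10.2% of all genes were lower without overlap. The median log2 fold change was -1.54, and -1.18 without AL + NaIO3 replicate 3, when 41 were lower and 10 were called. In that fit 0.445% of all genes were called lower. Ifit3, an inhibitor of viral translation, was at 50.5, 49.7 and 66.1 CPM in AL + NaIO3 and at 19.3, 21.5 and 17.2 CPM in IF + NaIO3. It was called with the 6 libraries, with a difference of -1.53 ± 0.16 (edgeR adjusted p = 0.034). Ifit1, of the same family, was at 24.7, 25.6 and 25.7 CPM against 7.88, 7.60 and 4.37 CPM, and fell by 1.93 ± 0.25 without AL + NaIO3 replicate 3 (edgeR adjusted p = 0.0141). In Ifit1 that library lay beside the others of its group. Oas1a, a sensor of double-stranded RNA, was at 3.37, 3.59 and 6.18 CPM against 0.604, 0.716 and 0.586 CPM (edgeR adjusted p = 0.048 in the same fit). The ubiquitin-like Isg15 was at 7.09, 6.82 and 8.95 CPM against 1.32, 1.87 and 2.34 CPM (edgeR adjusted p = 0.048). The chemokine Cxcl10 was near its floor in fasted mice, at 9.57, 3.84 and 5.13 CPM against 0.345, 0.468 and 0 CPM (edgeR adjusted p = 0.0546).

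A control library limits how these genes can be read. AL + PBS replicate 1, an uninjured library, was above the other 5 PBS libraries in 31 of the 42 genes and above the lowest AL + NaIO3 library in 18. For Ifit3 it stood at 57.7 CPM against 24.04 and 20.4 CPM in the other AL + PBS libraries, and for Isg15 at 7.92 CPM against 2.62 and 2.82 CPM. That library does not enter the fit of the 6 libraries. In the fit of the 12, which it enters together with AL + NaIO3 replicate 3, 16 interferon-stimulated genes were called lower. When AL + NaIO3 replicate 3 was left out of the 12, 10 were called lower.

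The promoters of Ifit3, Isg15 and Oas1a are shown because interferon signals through short repeats near the start of such genes. Capitals mark the ISRE letters (GAAA, then NN, then GAAA) on either strand and, in Oas1a, also the STAT letters TTCNNNGAA.
Ifit3, chr19:34583279-34583528, plus strand: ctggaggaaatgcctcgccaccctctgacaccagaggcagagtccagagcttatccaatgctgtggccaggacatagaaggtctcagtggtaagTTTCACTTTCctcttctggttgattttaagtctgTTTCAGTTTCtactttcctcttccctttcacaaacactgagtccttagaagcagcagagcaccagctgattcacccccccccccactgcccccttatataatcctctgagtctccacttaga
Isg15, chr4:156200819-156201068, minus strand: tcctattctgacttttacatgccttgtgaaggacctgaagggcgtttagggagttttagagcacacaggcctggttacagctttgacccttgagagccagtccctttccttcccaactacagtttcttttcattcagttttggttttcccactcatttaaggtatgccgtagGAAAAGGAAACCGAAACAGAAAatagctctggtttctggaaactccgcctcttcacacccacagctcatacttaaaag
Oas1a, chr5:120907526-120907775, minus strand: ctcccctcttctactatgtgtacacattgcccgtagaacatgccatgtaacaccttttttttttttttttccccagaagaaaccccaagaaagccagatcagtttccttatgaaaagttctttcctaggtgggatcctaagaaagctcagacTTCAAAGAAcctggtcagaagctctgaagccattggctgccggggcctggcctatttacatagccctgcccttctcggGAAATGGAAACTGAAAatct
The ISRE matches begin 156 and 122 bases before the start in Ifit3, 78, 72 and 66 bases before it in Isg15 and 20 and 14 bases before it in Oas1a, where they overlap. These letters occur in 3.09% of the 16800 windows, and in 17 of the 33 interferon-stimulated genes with a window (51.5%).

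Antigen presentation genes were lower in fasted mice as well. For MHC class I and peptide loading, 19 of 23 tested genes were lower and 1 was higher at an unadjusted p under 0.05. Over all genes 8.22% were lower and 3.46% higher at that level. The median of the list was -1.31, and -0.83 without AL + NaIO3 replicate 3. H2-Q4, a non-classical class I molecule, was at 23.6, 29.0 and 28.9 CPM in AL + NaIO3 and at 8.43, 5.98 and 7.13 CPM in IF + NaIO3, and fell by 1.93 ± 0.20 (edgeR adjusted p = 0.034). B2m, the light chain that class I molecules share, was at 151, 113 and 283 CPM against 45.9, 55.3 and 45.6 CPM, and fell by 1.44 ± 0.15 without AL + NaIO3 replicate 3 (edgeR adjusted p = 0.00575). The heavy chains H2-D1 and H2-K1 and the immunoproteasome subunit Psmb8 were called in the same fit, with differences of -1.47, -1.35 and -1.93. Class I genes are near-identical copies of each other, and the reads of H2-Q4 could be shared with neighbouring genes. The window of H2-Q4 holds the NF-kB letters GGGANTTCC 173 bases before the start, printed in capitals, a match found in 1.55% of all windows.
H2-Q4, chr17:35379367-35379616, plus strand: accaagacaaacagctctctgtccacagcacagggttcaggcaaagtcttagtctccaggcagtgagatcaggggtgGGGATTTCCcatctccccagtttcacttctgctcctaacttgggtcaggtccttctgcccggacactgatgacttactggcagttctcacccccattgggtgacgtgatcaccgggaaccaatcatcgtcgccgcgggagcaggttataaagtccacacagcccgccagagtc

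MHC class II molecules, which present antigen on myeloid cells, were higher in the third AL + NaIO3 library than in the other two. All 7 tested genes were lower, with a median of -3.31 in the 6 libraries and -2.002 without it, when 4 were called. Cd74, the invariant chain, was at 24.6, 36.4 and 139 CPM in AL + NaIO3 and at 4.52, 3.80 and 3.93 CPM in IF + NaIO3. It fell by 2.91 ± 0.21 without that library (edgeR adjusted p = 0.000589). The IF + NaIO3 values lay under the 8.05 to 11.3 CPM of AL + PBS.

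Myeloid cell genes followed. The list of 29 tested macrophage and microglia genes had 26 lower and 0 higher at an unadjusted p under 0.05, against 8.22% of all genes lower. Its median was -2.28, and -1.50 without AL + NaIO3 replicate 3, when 4 were called, against 0.445% of all genes called lower. With the 12 libraries 15 of the 29 were called lower by edgeR, and 10 when AL + NaIO3 replicate 3 was left out of them. With the 6 libraries 19 were called lower by DESeq2. Summed over the list, levels were 2473, 2602 and 6237 CPM in AL + NaIO3 and 1371, 1253 and 1149 CPM in IF + NaIO3, beside 1211 to 1302 CPM in AL + PBS. Lyz2, the lysozyme of macrophages, was at 49.3, 34.2 and 578 CPM against 10.04, 7.46 and 8.27 CPM, and fell by 2.29 ± 0.20 without AL + NaIO3 replicate 3 (edgeR adjusted p = 0.00229). The lysosomal genes Ctss and Cd68 fell by 1.73 ± 0.19 and 1.72 ± 0.28 in that fit (edgeR adjusted p = 0.00722 and 0.048). Markers of resident microglia differed among themselves. P2ry12, a purine receptor of homeostatic microglia, was at 4.65, 2.63 and 3.63 CPM against 3.42, 5.01 and 3.07 CPM, with overlapping groups and a difference of 0.07 ± 0.35. Tmem119 was at 6.93, 5.76 and 11.6 CPM against 3.60, 3.55 and 3.27 CPM (edgeR adjusted p = 0.253). Aif1, which encodes IBA1, was at 1.12, 1.14 and 0.564 CPM against 0.259, 0.303 and 0 CPM. The groups did not overlap in Aif1, and its difference of -2.28 ± 0.91 was not called (edgeR adjusted p = 0.398).

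Complement genes, whose products tag debris for uptake, were lower in 21 of 22 tested genes. Of these, 15 had an unadjusted p under 0.05, where 8.22% of all genes were lower at that level. The median was -2.10, and -1.11 without AL + NaIO3 replicate 3, when 5 were called, namely C1qa, C1qb, C1qc, C3 and C4b. In that fit 0.445% of all genes were called lower. C4b is also among the calls of the reactive glia list. C1qa, a subunit of the first component, was at 48.7, 29.7 and 77.6 CPM in AL + NaIO3 and at 13.7, 7.22 and 7.51 CPM in IF + NaIO3. C3, the central component, was at 11.04, 11.1 and 43.6 CPM against 2.47, 1.68 and 2.96 CPM, and fell by 2.23 ± 0.29 (edgeR adjusted p = 0.0134 without that library). C4b was at 20.8, 32.6 and 69.1 CPM against 7.57, 2.95 and 5.37 CPM. In the NADPH oxidase list, which makes superoxide in phagocytes, Cybb was called in the same fit, at 4.69, 3.62 and 27.3 CPM against 1.04, 0.799 and 0.896 CPM (edgeR adjusted p = 0.048). It was the 1 called of 10 oxidase genes tested in that fit. With the 6 libraries, 6 of 11 tested oxidase genes were lower and 0 higher at an unadjusted p under 0.05. Their median was -1.52, and -0.87 without AL + NaIO3 replicate 3. The fit of 12 libraries called 3 lower, Cyba, Cybb and Rac2, and 2 when AL + NaIO3 replicate 3 was left out of them. DESeq2 called 4 lower with the 6.

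Several chemokine and lymphocyte genes were close to the detection floor. For 28 tested chemokines, cytokines and receptors, 16 were lower and 0 higher at an unadjusted p under 0.05, against 8.22% of all genes lower. Without AL + NaIO3 replicate 3, 1 was called, the tumour necrosis factor receptor Tnfrsf1a. The median of this list was -1.57, and -0.85 without that library. Ccl3, a chemokine that attracts monocytes, had 26, 9 and 32 counts in AL + NaIO3 and 0 in each IF + NaIO3 library, so it was at least 23.2-fold lower against a floor of 3 counts over the group. Ccl7 had 14, 11 and 39 counts against 0 (at least 22.1-fold lower, and at least 14.1-fold without AL + NaIO3 replicate 3), and Ccl2 66, 21 and 107 counts against 5, 0 and 0. None of these 3 was called by edgeR, where their adjusted p lay at 0.178, 0.188 and 0.191. DESeq2 called 11 genes of the list lower, these 3 among them. Of 17 lymphocyte genes in the file, 9 were tested. All 9 were lower, 8 at an unadjusted p under 0.05, and 0 were called by edgeR. DESeq2 called 6 genes of this list lower. The median of the tested genes was -3.08, and -3.33 without AL + NaIO3 replicate 3, when 10 were tested. Over the list, summed levels were 7.48, 9.13 and 18.3 CPM in AL + NaIO3 and 1.55, 1.87 and 1.00 CPM in IF + NaIO3. At such low IF + NaIO3 levels a gene could pass the expression filter through its AL + NaIO3 counts alone. The signs and medians of the tested lymphocyte genes therefore decide nothing. This holds also for the chemokine list genes near the floor, as 2 of its 28 had 0 counts in every IF + NaIO3 library. The count of lower genes in the chemokine list includes such genes, so it decides nothing for them. The T cell receptor subunit Cd3e and the killer cell receptor Klrb1b had 0 counts in IF + NaIO3 and 9 to 53 and 11 to 28 counts in AL + NaIO3. The receptor gene Cd244a had 13, 17 and 41 counts against 0. Spn, a leukocyte sialoprotein, had 17, 17 and 83 counts against 0, 2 and 0. The cytokine gene Il21 and the serpin Serpinb7 were too low to test, at up to 29 and 15 counts in an AL + NaIO3 library and 0 in IF + NaIO3. Ccdc194, also untested, had 0, 23 and 39 counts against 0. Neutrophil genes were sparse, with 5 of 13 tested and S100a8 at or under 0.173 CPM in each of the 6 libraries.

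**Figure D3:**
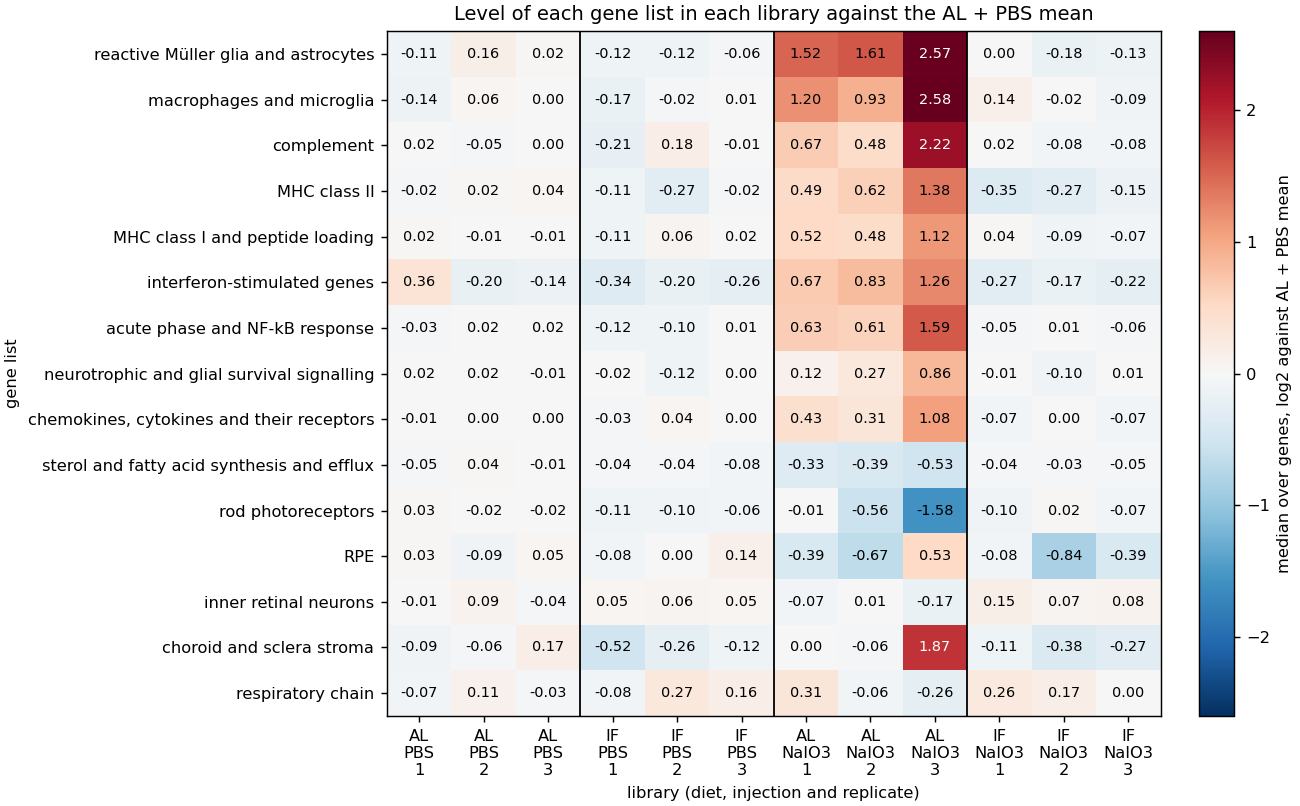
Level of 15 gene lists in each of the 12 libraries, as the median over the genes of a list of the log2 difference from the AL + PBS mean, with red for higher and blue for lower. Reactive glial genes stand at 1.52, 1.61 and 2.57 in AL + NaIO3 and between -0.18 and 0.00 in IF + NaIO3, sterol genes at -0.33, -0.39 and -0.53 against -0.05 to -0.03, and stroma genes at 1.87 in AL + NaIO3 replicate 3 alone.

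By the number of genes higher at an unadjusted p under 0.05, sterol genes were the main group in the opposite direction. Their median was positive with and without the third AL + NaIO3 library, as was that of the rod genes given below. Cells low in sterol release the SREBP2 factor, which induces the enzymes of cholesterol synthesis, while excess sterol induces the exporter Abca1 through LXR. Of 27 tested genes, 16 were higher in IF + NaIO3 at an unadjusted p under 0.05, where 3.46% of all genes were higher at that level, and 2 were lower. The 3 libraries of each group did not overlap in 17 higher genes, against 8.68% of all genes. Their median was 0.49, and 0.38 without AL + NaIO3 replicate 3, when 15 were higher at an unadjusted p under 0.05. Under 16 alternative settings the median lay between 0.38 and 0.52. In AL + NaIO3 the libraries stood at -0.33, -0.39 and -0.53 against the AL + PBS mean (median over the genes, log2), and in IF + NaIO3 at -0.04, -0.03 and -0.05.

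Insig1, the retention protein that SREBP2 itself induces, was at 53.1, 53.5 and 42.8 CPM in AL + NaIO3 and at 90.6, 96.2 and 95.3 CPM in IF + NaIO3. The values within each group were close and the groups lay far apart. Insig1 was 0.81 ± 0.11 higher without AL + NaIO3 replicate 3 (edgeR adjusted p = 0.0204) and 0.91 ± 0.12 higher with it (edgeR adjusted p = 0.0806). Fdft1, squalene synthase, was at 64.0, 61.8 and 40.3 CPM against 106, 113 and 95.8 CPM, and rose by 0.73 ± 0.12 without that library (edgeR adjusted p = 0.048). Its annotation overlaps Ctsb. Hmgcs1, the synthase that feeds HMG-CoA into the pathway, was at 100.4, 79.9 and 72.6 CPM against 146, 162 and 155 CPM. Idi1, the isopentenyl isomerase, was at 26.7, 22.3 and 16.9 CPM against 40.8, 46.3 and 40.8 CPM. Both were called with the 12 libraries (edgeR adjusted p = 0.00557 and 0.00969) and not without AL + NaIO3 replicate 3 (0.0615 for each). The sterol carrier Stard4 was also called with the 12 libraries, at 0.79. Sqle, squalene epoxidase, was at 42.1, 33.7 and 35.5 CPM against 52.3, 56.4 and 49.0 CPM and was not called (edgeR adjusted p = 0.0518 with the 12 libraries). The exporter Abca1 went the other way, at 107, 125 and 170 CPM against 51.5, 59.0 and 56.4 CPM, and fell by 1.07 ± 0.12 without AL + NaIO3 replicate 3 (edgeR adjusted p = 0.00816). Fatty acid genes of the list did not share the pattern. Fasn had a log2 difference of -0.03, and 0.11 without AL + NaIO3 replicate 3, and Acaca of 0.08 and 0.10. Scd1 was at -0.53 and -0.08, Scd2 at -0.17 and -0.03, and Elovl6 at 0.25 and 0.18.

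**Figure D4:**
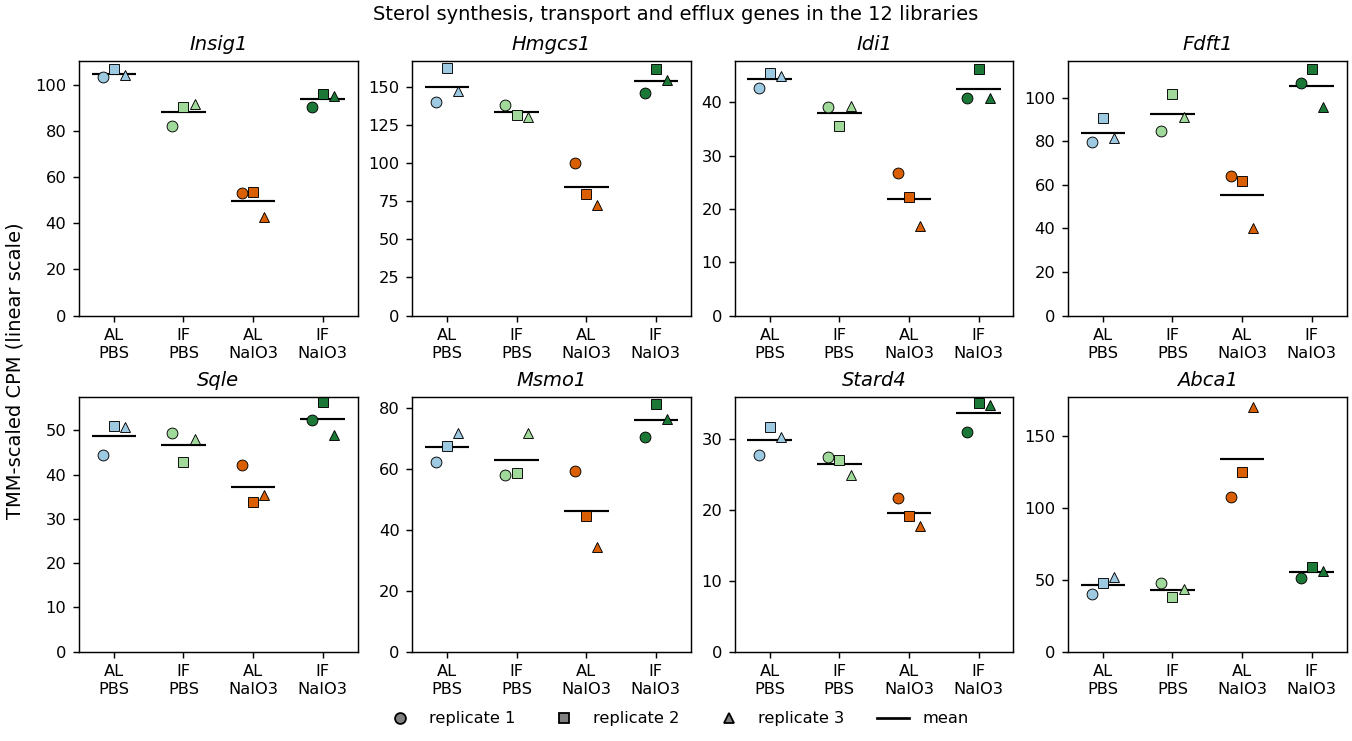
TMM-scaled CPM on a linear scale from 0 for 8 genes of sterol synthesis, transport and efflux in the 12 libraries, with a bar at each group mean. Insig1 holds 42.8 to 53.5 CPM in AL + NaIO3 and 90.6 to 96.2 in IF + NaIO3, the other synthesis and transport genes have the same order, and Abca1 has the opposite order.

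The promoter of Hmgcs1 is shown as the 1 window among 17 sterol genes with the sterol response letters TCACNCCAC, in capitals and 137 bases before the start. These letters occur in 1.02% of all windows.
Hmgcs1, chr13:119690101-119690350, plus strand: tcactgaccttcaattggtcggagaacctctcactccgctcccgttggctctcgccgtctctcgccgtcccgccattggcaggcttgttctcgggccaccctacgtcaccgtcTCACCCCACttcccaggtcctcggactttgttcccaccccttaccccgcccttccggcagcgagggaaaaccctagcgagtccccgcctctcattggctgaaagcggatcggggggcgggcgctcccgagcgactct

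Beside the sterol genes, 3 others were called higher without AL + NaIO3 replicate 3. Ndufaf2, an assembly factor of respiratory complex I, was at 22.98, 18.0 and 10.9 CPM in AL + NaIO3 and at 50.8, 49.1 and 45.7 CPM in IF + NaIO3 (edgeR adjusted p = 0.0101). The 30 respiratory chain genes had 0 calls by edgeR or DESeq2 and 1 gene higher at an unadjusted edgeR p under 0.05. Their median was 0.11, with 28 higher and 2 lower. Without AL + NaIO3 replicate 3 it was 0.0019, with 15 lower and 15 higher. Gm42669 was at 2.76, 5.93 and 1.96 CPM against 43.4, 25.8 and 32.6 CPM (edgeR adjusted p = 0.00999), and its span holds 3 other genes. Gm48551 is given above with the gene it overlaps. Of the genes the study names, Krt23, Aspm, Kifc5b, Abca13 and Serinc4 were not called by edgeR, and DESeq2 called Abca13, Kifc5b and Serinc4 higher (DESeq2 adjusted p = 0.0122, 0.00967 and 0.018). Krt23, a keratin, was at 0.257, 0.462 and 0.403 CPM against 1.29, 0.689 and 1.14 CPM, and the 5 had edgeR adjusted p values between 0.233 and 0.374.

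Rod genes were higher in fasted mice in sign but not past the test. Of 27 rod genes, 26 were higher in IF + NaIO3, but 0 had an unadjusted p under 0.05 in edgeR, and 0 were called by edgeR or DESeq2. Their median was 0.49, and 0.18 without AL + NaIO3 replicate 3. Gnat1 was at 10188, 6227 and 3163 CPM in AL + NaIO3 and at 9275, 8671 and 8789 CPM in IF + NaIO3. AL + NaIO3 replicate 1 held the highest value of the 6 and replicate 3 the lowest. The difference of Gnat1 was 0.44 ± 0.41 (edgeR adjusted p = 0.688), and 0.11 ± 0.23 without AL + NaIO3 replicate 3. Over the list, the AL + NaIO3 libraries stood at -0.01, -0.56 and -1.58 against the AL + PBS mean and the IF + NaIO3 libraries between -0.10 and 0.02. In AL + NaIO3 replicate 1 the reactive glial list was at 1.52 while the rod list was at its uninjured level. Of 14 cone genes, 10 were higher and 4 lower, with a median of 0.17, whereas 5 were higher and 9 lower without AL + NaIO3 replicate 3, with a median of -0.06. At an unadjusted p under 0.05, 2 cone genes were higher, the cone arrestin Arr3 (0.71) and the channel subunit Kcne2 (0.64), and 2 were lower, the phosphodiesterase Pde6c (-0.52) and the transducin subunit Gnb3 (-1.05). Gnb3 was called with the 12 libraries. The 29 inner retinal neuron genes had a median of 0.11, and 0.04 without AL + NaIO3 replicate 3.

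RPE genes went both ways. Of 27 tested, 17 were lower and 10 higher, 9 and 4 of them at an unadjusted p under 0.05, with a median of -0.29. Without AL + NaIO3 replicate 3, 11 were lower and 16 higher, 1 and 7 of them at that level, with a median of 0.07. Over all genes 8.22% were lower and 3.46% higher at that level with the 6 libraries, and 5.93% and 3.35% without that library. Rpe65, which regenerates the chromophore, was at 51.3, 39.6 and 55.2 CPM in AL + NaIO3 and at 133, 58.6 and 88.9 CPM in IF + NaIO3, beside 103 to 142 CPM in AL + PBS. Each fasted library exceeded each AL + NaIO3 library, and IF + NaIO3 replicate 2 was the nearest to them. The difference was 0.93 ± 0.28 and was not called (edgeR adjusted p = 0.296). DESeq2 called 3 genes of the list, all higher: Rpe65, Rgr and Slc16a8 (DESeq2 adjusted p = 0.0379, 0.0358 and 0.0329). Rgr, an opsin of the RPE and Müller glia, was at 219, 143 and 210 CPM against 447, 223 and 392 CPM, and the lactate transporter Slc16a8 at 31.7, 29.1 and 33.2 CPM against 73.0, 37.5 and 58.0 CPM. In each of these genes replicate 2 was the lowest of IF + NaIO3. Slc16a8 was called with the 12 libraries (edgeR adjusted p = 0.0431), and its locus overlaps Gm49486. Best1, an RPE chloride channel, went the other way at a low level, with 1.03, 0.675 and 1.42 CPM against 0.633, 0.413 and 0.276 CPM. Its groups did not overlap, and its difference of -1.24, or -0.95 without AL + NaIO3 replicate 3, was not called (edgeR adjusted p = 0.446). Cdh1, an epithelial adhesion protein, was at 2.05, 6.54 and 12.8 CPM against 2.76, 2.18 and 0.896 CPM, with overlapping groups and differences of -1.88 and -1.14, and was not called. Pigment genes were highest in 1 library. Tyrp1, a melanin synthesis enzyme of RPE and choroidal melanocytes, was at 25.2, 21.5 and 646 CPM against 21.95, 12.9 and 18.4 CPM, a difference of -3.71 with that library and -0.41 without it. Pmel and Tyr did the same, from -3.32 and -2.57 to -0.53 and -0.34. The 16 stroma genes, with a median of -1.41, went to -0.30 without AL + NaIO3 replicate 3. The part of this library's tissue content in the differences of the 6 libraries was not tested.

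**Figure D5:**
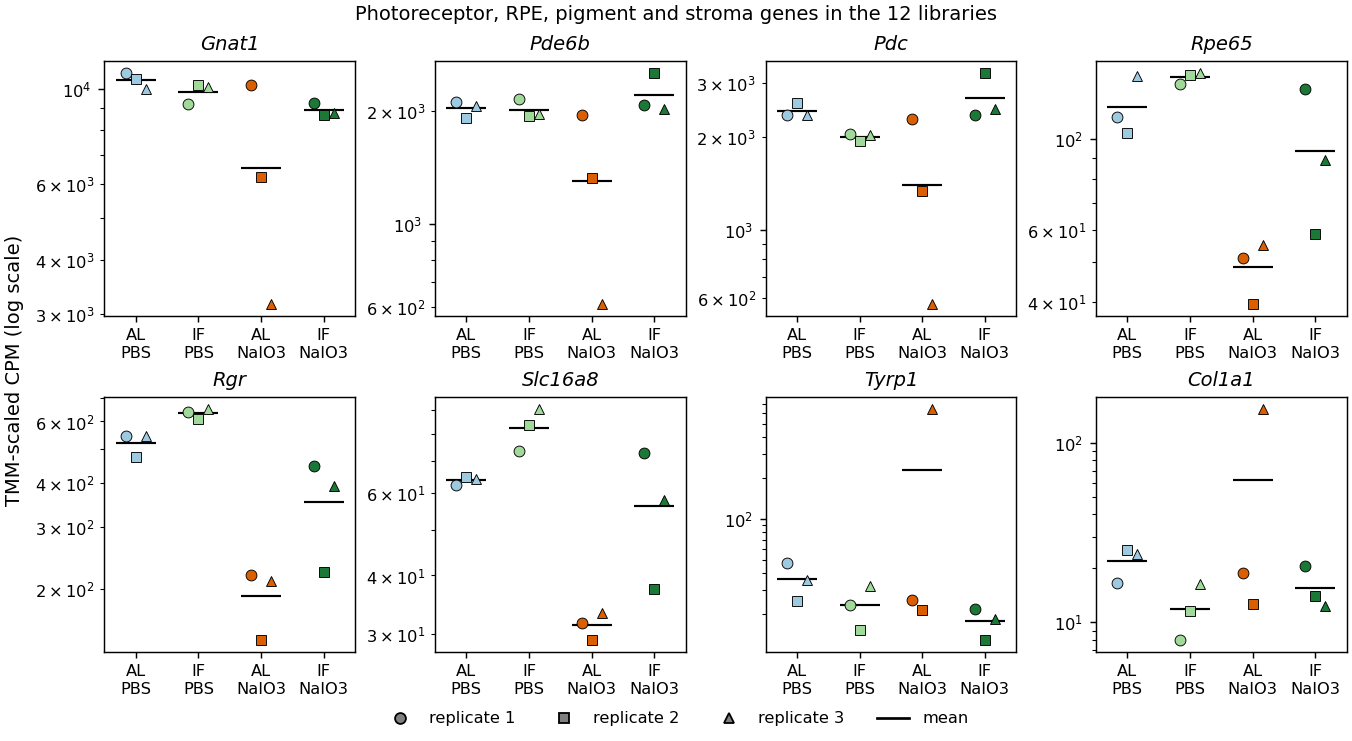
TMM-scaled CPM on a log scale for 3 rod genes, 3 RPE genes, the pigment gene Tyrp1 and the collagen gene Col1a1 in the 12 libraries, with a bar at each group mean. AL + NaIO3 replicate 3 is the lowest of the 12 for Gnat1, Pde6b and Pdc and the highest for Tyrp1, at 646 CPM, and Col1a1, at 155 CPM.

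Stress and metabolism lists were examined next. Of 35 antioxidant and NRF2 target genes, 10 were lower and 0 higher at an unadjusted p under 0.05, where 8.22% of all genes were lower, and the median was -0.22. Without AL + NaIO3 replicate 3, 9 were lower and 1 higher at that level and the median was -0.10. Mt2, a metal-binding metallothionein, was at 66.6, 80.2 and 89.5 CPM against 37.2, 27.5 and 28.4 CPM, and fell by 1.25 ± 0.16 without AL + NaIO3 replicate 3 (edgeR adjusted p = 0.0133), as did Gpx3, an extracellular peroxidase, by 1.17 ± 0.14. These were the 2 genes of the list called lower without that library, where 0.445% of all genes were. Hmox1, the haem oxygenase of the NRF2 response, was at 7.13, 5.65 and 20.3 CPM against 2.56, 3.00 and 1.41 CPM and was called by edgeR with the 12 libraries (edgeR adjusted p = 0.0328) and by DESeq2 with the 6 (DESeq2 adjusted p = 0.000996), but not by edgeR with the 6 or without AL + NaIO3 replicate 3. Of 19 tested cell death genes, 8 were lower and 1 higher at an unadjusted p under 0.05, and edgeR called none without AL + NaIO3 replicate 3, where 7 had an unadjusted edgeR p under 0.05. DESeq2 called 4 of them lower with the 6 libraries. Pycard, the adaptor of the inflammasome, was at 4.08, 7.64 and 6.80 CPM against 1.52, 1.49 and 0.965 CPM and was called with the 12 libraries (edgeR adjusted p = 0.00948). Metabolic lists that fasting is known to engage had medians near 0 over members that went both ways. The 28 genes of fat oxidation and ketone metabolism had 0 calls by edgeR and 2 by DESeq2, with 5 lower and 1 higher at an unadjusted edgeR p under 0.05. Their median was -0.07, and -0.01 without AL + NaIO3 replicate 3. The lipid droplet protein Plin4 had a difference of -1.89 and the mitochondrial carrier Ucp2 of -1.48 (edgeR adjusted p = 0.302 and 0.323). Of 18 glucocorticoid and FOXO targets, 3 were lower and 1 higher at that level, and Mt2, given above, was called lower without AL + NaIO3 replicate 3. Their median was 0.01, and 0.03 without that library, and the 19 clock genes had medians of 0.05 and 0.01. Pdk4, a fasting-induced kinase in many tissues, was at or under 2.58 CPM in each library.

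Genes outside the lists made up 19 of the 70 called lower without AL + NaIO3 replicate 3. The largest were Tnnt2, a troponin better known from heart muscle, and Slc6a2, the noradrenaline transporter. Tnnt2 was at 5.71, 12.1 and 13.3 CPM in AL + NaIO3 and at 0.748, 0.330 and 1.52 CPM in IF + NaIO3 (edgeR adjusted p = 0.048 in that fit). Slc6a2 was at 6.23, 3.27 and 21.1 CPM against 0.863, 0.468 and 0.413 CPM (edgeR adjusted p = 0.0423). Skeletal muscle markers summed to 513, 396 and 173 CPM in AL + NaIO3 and to 110, 214 and 432 CPM in IF + NaIO3, and their part in the Tnnt2 difference was not tested. Their median was -0.57, and -0.93 without AL + NaIO3 replicate 3, when 8 of 18 were lower at an unadjusted p under 0.05. Cornea and surface epithelium markers went from -1.29 to -1.84, when 7 of 12 were lower at that level, against 5.93% of all genes. The endothelium median went from -0.57 to -0.05. Ccn2, a matrix protein of the TGF-beta and YAP responses, was at 78.3, 90.0 and 153 CPM against 32.6, 26.5 and 35.4 CPM, and fell by 1.43 ± 0.15 (edgeR adjusted p = 0.00552). Chil1, a chitinase-like protein of activated macrophages and astrocytes, was at 74.0, 53.4 and 398 CPM against 25.4, 23.6 and 23.9 CPM (edgeR adjusted p = 0.00664). The chaperone Clu, abundant in every library, was at 1102, 1082 and 2147 CPM against 653.9, 561.5 and 634.1 CPM and fell by 0.83 ± 0.13 (edgeR adjusted p = 0.048).

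In mice injected with PBS the same diet comparison gave 0 called genes of 15361 in edgeR, with 2623 at an unadjusted p under 0.05. Edn2 was at 3.02, 5.03 and 4.19 CPM in AL + PBS and at 2.91, 2.70 and 1.61 CPM in IF + PBS, and Insig1 at 103, 107 and 105 CPM against 82.3, 90.7 and 91.8 CPM. The difference between the diet effects after NaIO3 and after PBS was tested as an interaction in the 12 libraries, and 5 of 15970 genes had an edgeR adjusted p under 0.05. The diet difference was more negative after NaIO3 than after PBS for Edn2, Lcn2 and Cebpd, and more positive for the other 2, Insig1 (1.17, edgeR adjusted p = 0.00981) and Gm42669 (3.10, edgeR adjusted p = 0.0212). Both injections share no library, so the interaction uses each library once. It includes AL + NaIO3 replicate 3 and is given only with that library. For Gfap the interaction was -3.37 (edgeR adjusted p = 0.0652), and for Ifit3 -0.81 (edgeR adjusted p = 0.458).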

How the data were processed

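The labels and methods describe poly-A RNA-seq with single-end reads of 150 bases. The authors deposited a table of read counts and FPKM per gene for 12 libraries. The submitters' processing notes name HISAT2, StringTie, DESeq2, edgeR and GRCm39, and the counting program and its strand setting are not given in the sources used here. Coordinates in the deposited table overlap RefSeq genes of GRCm38.p6, so that build is used for sequences. The authors' columns of fold changes and p-values were not used.

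Raw counts were tested with edgeR 4.0.16 (R 4.3.3): filterByExpr, TMM scaling, quasi-likelihood test and Benjamini-Hochberg adjustment over all tested genes. Calls required an adjusted p below 0.05 and a difference of 1.5-fold or more. Standard errors were derived from the fold change and its F statistic. Total counts ran from 26364665 to 43046950. FPKM, deposited by the authors, served only for levels between genes. The file lists 21930 genes, 3003 with 0 counts throughout, and 31 symbols occur more than once. P-values measure the spread between the libraries of a group.

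Alternatives were DESeq2 1.42.0, other scalings and filters, a replicate block, a robust fit, all 12 libraries and leaving out each library. An 11-library fit, DESeq2 without AL + NaIO3 replicate 3 and the interaction were added after seeing the data. Scripts were tested on simulated data. The members and the 33 gene lists were chosen with earlier results of these data known. Genes were named if called in the 6 libraries, if among the largest non-overlapping changes in the fits without AL + NaIO3 replicate 3 or with 12 libraries, if among the 2 lowest p of a list, or if the study names them. Other named genes were chosen after their values were seen.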

Additional observations from a re-analysis of the deposited data

Results flagged for a closer look

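For 3 of the 6 genes called in the 6 libraries the diet difference after NaIO3 was itself different from that after PBS, by the interaction term of the 12-library edgeR fit. The difference between the diet differences was -4.50 for Edn2 (edgeR adjusted p = 0.00495), -4.28 for Lcn2 (edgeR adjusted p = 0.0020) and -2.43 for Cebpd (edgeR adjusted p = 0.00495), on the log2 scale. After PBS the diet difference was -0.76 for Edn2, 0.53 for Lcn2 and -0.12 for Cebpd, and after NaIO3 it was -5.29, -3.77 and -2.56. In all 5 genes passed this test, and the other 2, Insig1 (1.17, edgeR adjusted p = 0.00981) and Gm42669 (3.10, edgeR adjusted p = 0.0212), were not among those 6. The interaction was chosen after seeing the data.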

How the results depend on the processing

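The count of 6 called genes was the same with upper quartile scaling, with RLE factors, with at least 10 counts in every library and with a robust fit. It became 499 with DESeq2, 16 without a filter on low genes and 190 with all 12 libraries. In fits chosen after seeing the data it was 122 with the 12 libraries less AL + NaIO3 replicate 3, and 254 with DESeq2 without that library. Leaving out 1 library gave 0 to 75 called genes, and 0 came from leaving out IF + NaIO3 replicate 1 or 2. Upper quartile scaling moved the median of all genes to -0.06. Replicate numbers did not pair the samples: deviations of same-numbered libraries correlated at -0.028, -0.023 and 0.152, and a replicate block gave 28 called genes. Of the 149 named genes run under the alternatives, 2 were counted as changing sign, and neither was called. Fasn, given above, went from -0.03 to 0.11 without AL + NaIO3 replicate 3. The fold change of P2ry12 went to -0.111 without AL + NaIO3 replicate 2 and to -0.164 without IF + NaIO3 replicate 2, in a range of -0.164 to 0.297 on leaving out 1 library. The fold change of Opn1sw went to -0.0911 without AL + NaIO3 replicate 3, in a range of -0.0911 to 0.661, to -0.0843 in the 12 libraries less that library and to -0.0834 with DESeq2 without it. Over 16 alternatives the difference ranged from -5.60 to -4.82 for Edn2, from -4.02 to -3.35 for Lcn2 and from -2.69 to -2.29 for Cebpd, and each was called in 12 of them. It ranged from -3.05 to -2.55 for Hipk1, called in 12, from -2.06 to -1.80 for H2-Q4, called in 11, and from -1.61 to -1.38 for Ifit3, called in 10. These calls were lost on leaving out 1 library other than AL + NaIO3 replicate 3 and, for Ifit3, also in the 12 libraries less that library. The cause of these changes was not tested.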
